A study of Mus musculus with 23 samples.

Results

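Levels of 10 genes of the glutathione and thioredoxin antioxidant system were followed in mouse spleen after whole-body gamma irradiation. They were chosen by gene symbol, as the probes of Gclc, Gclm, Gsr, Gpx1, Glo1, Txnrd1, Prdx1, Prdx2, Srxn1 and Nqo1 that passed a detection filter, and all 10 were on the array with 1 probe each, out of 11348 named genes measured. Each of the 23 arrays held spleen RNA of 2 male mice, aged 10 weeks, mixed as 1 pool and taken 24 h after exposure. Both inbred strains, C57BL/6J and DBA/2J, had 3 groups: unirradiated control, gamma rays from cesium (137 Cs) to a low dose of 10 cGy, at a rate of 9 cGy/h, and gamma rays from cobalt (60 Co) to a high dose of 1 Gy, at 6 Gy/min. There were 4 pools in 5 of the groups and 3 in DBA/2J low dose. Dose, dose rate and source changed together and cannot be told apart. The samples' source names carry the word control in irradiated groups too, so the dose was taken from the treatment label. No label links pools across groups, and the spread behind each p-value is that between such pools rather than between single animals.

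Glutathione is made by glutamate-cysteine ligase, with Gclc as its catalytic and Gclm as its modifier subunit. Glutathione peroxidases such as Gpx1 spend it on hydrogen peroxide, glutathione reductase (Gsr) restores it, and glyoxalase 1 (Glo1) uses it to remove methylglyoxal. In the parallel thioredoxin system, thioredoxin reductase 1 (Txnrd1) keeps thioredoxin reduced, the peroxiredoxins Prdx1 and Prdx2 break down peroxide, and sulfiredoxin (Srxn1) repairs peroxiredoxins that have been over-oxidised. Nqo1, a quinone reductase, is usually grouped with them because many of these genes answer to the transcription factor NRF2, which binds the antioxidant response element. Mouse spleen also makes red blood cells, and maturing red cells are rich in peroxide defences, Prdx2 and Gpx1 among them.

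Levels are log2 intensities after background correction and quantile normalization. They are compared for 1 gene between groups and never between genes, because probes differ in brightness. Each gene was tested with limma over all 17176 features, and a gene is called when its Benjamini-Hochberg adjusted p lies under 0.05. Median signals per array ran from 99.8 to 137, and 14233 to 16002 probes were detected. The deposited detection p was under 0.05 for Gclc on 5 arrays and for Nqo1 on 4, and for the other 8 genes on at least 21. Gclc sat at background, with a median detection p of 0.221, equal to that of the 200 probes nearest to it in signal. Nqo1 had a median of 0.154 while its neighbours in signal had 0, so its detection values and its signals did not match. The Gpx1 signal reached 59520, where the highest signal on any array was 68575, so its probe lay near the top of the range.

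Some pools stood apart. Pools 1 and 3 of DBA/2J low dose had mean B cell marker levels of 9.42 and 9.87 and T cell marker levels of 8.93 and 8.90, against 10.7 and 10.2 in pool 2 and at least 10.46 and 9.78 in DBA/2J controls. One C57BL/6J control pool and 1 C57BL/6J high dose pool, both numbered 1, carried pancreatic transcripts, with means of 13.56 and 13.61 over the carry-over list against at most 7.56 in the other 21 pools. Where a call or value rests on these pools, it is given below with and without them. A fit with pool 2 as the only DBA/2J low dose pool takes its spread from the other groups, and so assumes that this pool varies as they do. The error of 1 pool is larger, which can end a call at an unchanged difference, so the differences and not the calls are given for it. B cell, T cell and macrophage markers were measured in all groups, with group means of 9.34 or higher for each list.

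Promoter windows from RefSeq (build GRCm38.p6), running from 250 bases before to 50 bases after an annotated start, were at hand for 8 of the 10 genes and not for Gclc and Gsr. Those of Gclm, Prdx2 and Nqo1 are shown because these 3 genes moved together across the pools, and that of Srxn1 because it rose in DBA/2J after the low dose. The windows read 5′ to 3′ on the gene's own strand, at chr3:122245307-122245606 (plus) for Gclm, chr8:84969372-84969671 (plus) for Prdx2, chr8:107403156-107403455 (minus) for Nqo1 and chr2:152105274-152105573 (plus) for Srxn1. Capitals mark matches to TGACNNNGC, a form of the core of the antioxidant response element, searched on both strands, and they read here as its reverse complement. Other forms of the core were not searched and stay in lower case.
Gclm: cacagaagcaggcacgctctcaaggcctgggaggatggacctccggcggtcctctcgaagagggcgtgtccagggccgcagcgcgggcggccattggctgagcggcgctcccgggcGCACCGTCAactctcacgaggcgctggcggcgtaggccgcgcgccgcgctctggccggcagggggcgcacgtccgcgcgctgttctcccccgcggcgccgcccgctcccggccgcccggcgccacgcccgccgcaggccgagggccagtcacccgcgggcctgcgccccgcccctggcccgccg
Prdx2: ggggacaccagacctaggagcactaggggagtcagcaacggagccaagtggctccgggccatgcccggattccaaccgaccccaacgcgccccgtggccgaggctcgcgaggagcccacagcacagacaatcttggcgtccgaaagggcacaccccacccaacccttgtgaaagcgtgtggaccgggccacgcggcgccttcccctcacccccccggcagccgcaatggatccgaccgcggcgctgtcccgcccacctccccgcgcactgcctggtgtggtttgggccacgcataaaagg
Nqo1: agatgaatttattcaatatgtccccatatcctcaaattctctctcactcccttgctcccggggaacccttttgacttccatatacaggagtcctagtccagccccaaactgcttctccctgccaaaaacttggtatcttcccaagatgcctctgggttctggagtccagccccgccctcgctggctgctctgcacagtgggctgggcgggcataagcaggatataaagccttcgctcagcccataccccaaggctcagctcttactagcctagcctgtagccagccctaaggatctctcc
Srxn1: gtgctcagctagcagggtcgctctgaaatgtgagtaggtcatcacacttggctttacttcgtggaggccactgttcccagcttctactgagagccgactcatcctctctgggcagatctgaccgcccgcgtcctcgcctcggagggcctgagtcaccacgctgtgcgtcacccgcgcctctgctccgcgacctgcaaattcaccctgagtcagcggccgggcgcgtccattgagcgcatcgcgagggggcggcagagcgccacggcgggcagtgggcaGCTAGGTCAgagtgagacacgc
The core occurred in 4 of the 10 windows of the 8 genes, each of another gene: Gclm (GCACCGTCA), Srxn1 (GCTAGGTCA), Prdx1 (GCTGAGTCA) and 1 of the 3 Txnrd1 windows (GCTTTGTCA). Of all 32851 mouse promoter windows of this length, 12.4% held it. AGATAA, a form bound by the GATA factors of red cell development, was in none of the genes' 10 windows and in 11.2% of all windows. The printed Prdx2, Nqo1 and the Gpx1 and Glo1 windows held neither motif. A match is only a string of letters, and its absence here covers these 300 bases and the searched forms only.

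In C57BL/6J spleen, both doses lowered Gclm, the modifier subunit of glutathione synthesis, together with Prdx2, Nqo1 and Glo1, and the high dose also lowered Gpx1. After the high dose 5 of the 10 genes fell and none rose, where 4.43% of all features fell and 8.08% were called either way. After the low dose 4 fell and none rose, against 2.64% of all features called lower and 3.23% either way. Nqo1, in both counts, passed the detection filter only through 2 C57BL/6J control, 1 DBA/2J control and 1 DBA/2J low dose array. It was high in those groups, so its falls here are not independent of the filter. The same limit applies to its calls below. The median difference over the 10 genes was -0.45 at the high dose and -0.40 at the low dose, on the log2 scale, and over all features it was 0.04 and 0.03. Pools did not overlap between high dose and control for 5 of the genes (17% of all features), and between low dose and control for 5 (12.1%). Both comparisons use the same 4 control pools. In bulk spleen, fewer cells of a type and less RNA per cell cannot be told apart.

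In DBA/2J the high dose lowered 1 of the 10 genes, Prdx2, against 1.05% of all features called lower and 1.66% either way. Pools did not overlap between high dose and control for 4 genes (12.6% of all features). The low dose raised 2, Srxn1 and Gsr, against 3.77% of all features called higher and 10.2% either way, and pools did not overlap for 2 genes (12.5%). That background is unstable: the 1759 features behind the 10.2% became 264 without low dose pool 1 and 5346 without low dose pool 2, and the 285 behind the 1.66% of the high dose became 34 without control pool 1. These comparisons share their 4 control pools as well.

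**Figure D1:**
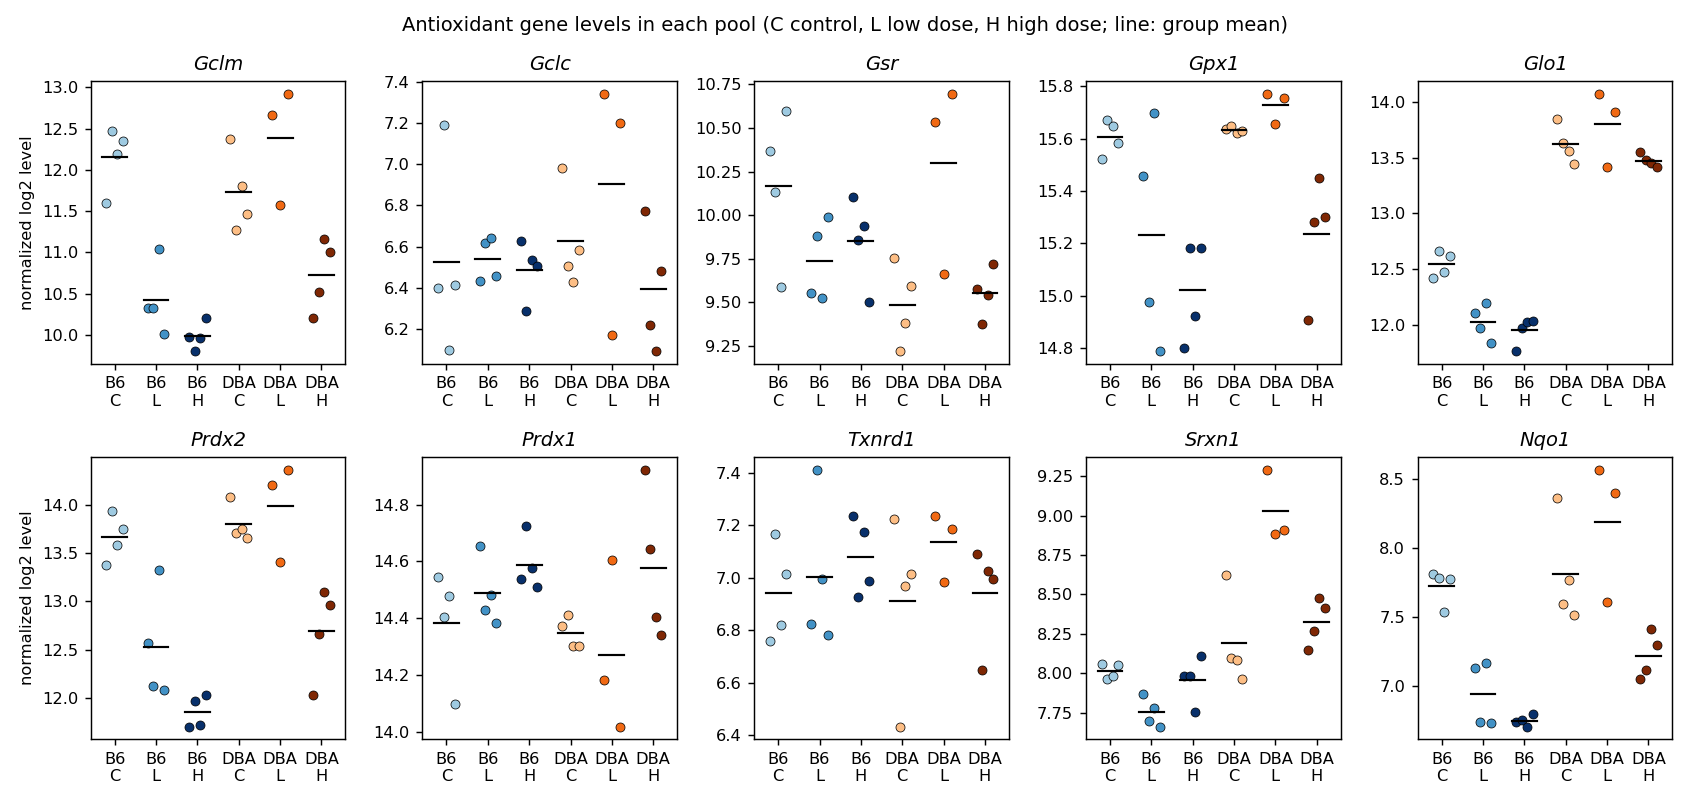
Normalized log2 level of each of the 10 genes in every pool, 1 panel per gene with its own axis; each point is a pool, lines are group means, and B6, DBA, C, L and H stand for C57BL/6J, DBA/2J, control, low and high dose. Gclm, Prdx2 and Nqo1 lie low in irradiated C57BL/6J pools, where Gclm spans 9.81 to 11.04 against 11.60 to 12.47 in controls, and Glo1 lies higher in all DBA/2J pools.

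Gclm had the largest differences of the 10 genes in both C57BL/6J dose comparisons. The C57BL/6J control pools stood at 11.60, 12.47, 12.20 and 12.35, the low dose pools at 10.32, 10.33, 11.04 and 10.02, and the high dose pools at 9.97, 9.81, 9.96 and 10.20. Every irradiated pool lay below every control pool, and the low and high dose pools overlapped. Gclm fell by 2.17 ± 0.29 (log2, SE), or 4.49-fold, after the high dose (adjusted p = 4.19e-05). It fell by 1.73 ± 0.29, or 3.31-fold, after the low dose (adjusted p = 0.00175). Both calls held when any 1 pool was left out, with differences from -2.35 to -2.06 and from -1.93 to -1.59.

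The DBA/2J pools gave Gclm levels of 12.38, 11.27, 11.80 and 11.47 in controls, 12.67, 11.57 and 12.92 after the low dose, and 10.21, 10.52, 11.16 and 11.01 after the high dose. The high dose pools all lay below the controls, and the low dose pools overlapped them. The high dose difference of -1.01 ± 0.29 did not pass the test (adjusted p = 0.0813, 95% interval -1.61 to -0.41), nor did the low dose difference of 0.66 ± 0.31 (adjusted p = 0.173). Without low dose pool 2 the latter was 1.06 and was called (adjusted p = 0.0110), and with pool 2 alone it was -0.16. Between DBA/2J high and low dose Gclm differed by -1.66 ± 0.31 (adjusted p = 0.000556). With only pool 2 in the low dose group that difference was -0.85.

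Gclc, the catalytic partner, was called in no comparison over all pools. Its levels spanned 6.10 to 7.19 in C57BL/6J controls and 6.29 to 6.63 after the high dose. The high dose difference was -0.04, with an interval of -0.51 to 0.43, at a probe whose signal did not rise above background on most arrays. In DBA/2J the low dose difference was 0.28. Without low dose pool 2 it was 0.65 (adjusted p = 0.0308), and Gclc was then also called between the DBA/2J doses (-0.88, adjusted p = 0.00268) and between the low dose strains (0.73, adjusted p = 0.00864). Whether the subunits differed in their response was not tested.

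Prdx2, the peroxiredoxin abundant in red cells, followed Gclm. C57BL/6J controls stood at 13.37, 13.93, 13.58 and 13.75, low dose pools at 12.57, 12.12, 13.32 and 12.08, and high dose pools at 11.71, 11.97, 11.72 and 12.03. The 3 groups did not overlap, and pool 3 of the low dose came closest to the controls. Prdx2 fell by 1.81 ± 0.25 (3.50-fold) after the high dose (adjusted p = 7.30e-05) and fell by 1.14 ± 0.25 (2.20-fold) after the low dose (adjusted p = 0.0133). The high dose call held without any 1 pool. The low dose call was lost without control pool 2 or low dose pool 2 or 4, with adjusted p from 0.0590 to 0.0618. Between the 2 doses the difference of -0.67 (interval -1.19 to -0.14) did not pass the test (adjusted p = 0.727).

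In DBA/2J, Prdx2 stood at 14.08, 13.71, 13.75 and 13.66 in controls, 14.20, 13.41 and 14.36 after the low dose, and 12.03, 12.67, 13.10 and 12.96 after the high dose. High dose pools lay below all the others of the strain, while low dose pools straddled the controls. Prdx2 fell by 1.11 ± 0.25 (2.16-fold) after the high dose (adjusted p = 0.0294). Leaving out control pool 1 or 3, or high dose pool 1 or 2, took the adjusted p to between 0.0726 and 0.130. It was 0.0526 with the background inferred from detection p and 0.0680 with median scaling. The low dose difference was 0.19 ± 0.27 (adjusted p = 0.677).

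Prdx1, a close relative found in most cells, was called in none of the comparisons over all pools. Without DBA/2J low dose pool 2 it was called between the DBA/2J doses (0.48, adjusted p = 0.00814) and between the low dose strains (-0.39, adjusted p = 0.0251), and without DBA/2J high dose pool 4 between the DBA/2J doses (0.39, adjusted p = 0.0461). Its lowest and highest levels were 14.10 and 14.55 in C57BL/6J controls and 14.51 and 14.72 after the high dose, a difference of 0.21 with an interval of -0.06 to 0.48. In DBA/2J the high dose difference was 0.23 (interval -0.04 to 0.50). Txnrd1 was not called in any comparison either, and its high dose differences were 0.14 (interval -0.18 to 0.46) in C57BL/6J and 0.03 (interval -0.29 to 0.35) in DBA/2J, at a dim probe.

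Nqo1 levels were 7.81, 7.79, 7.54 and 7.77 in C57BL/6J controls, 7.13, 6.74, 7.17 and 6.74 after the low dose, and 6.74, 6.76, 6.71 and 6.80 after the high dose. All irradiated pools lay below the controls, and the doses overlapped. By detection p the probe was not well above background on any irradiated C57BL/6J array and was measured on 2 of 4 control arrays. Those detection values did not match its signals, so log2 differences are given with their intervals and no fold. The Nqo1 difference was -0.98 after the high dose (interval -1.35 to -0.60, adjusted p = 0.00130). After the low dose it was -0.78 (interval -1.16 to -0.41, adjusted p = 0.0174). The low dose call was lost without control pool 2 or 4, or low dose pool 2 or 4, with adjusted p from 0.0563 to 0.0700, and without the pair of pools with pancreatic transcripts (-0.75, adjusted p = 0.0558). In DBA/2J, controls stood at 8.36, 7.59, 7.77 and 7.52 and high dose pools at 7.06, 7.12, 7.41 and 7.30. These groups did not overlap, but the difference of -0.59 ± 0.18 did not pass the test (adjusted p = 0.104). The low dose difference of 0.38 (adjusted p = 0.204) was called without control pool 1 (0.56, adjusted p = 0.0350) or low dose pool 2 (0.67, adjusted p = 0.00666), and was -0.20 with low dose pool 2 alone. With the background inferred from detection p, which compresses dim probes, the C57BL/6J high dose difference of Nqo1 was -0.14 and the low dose difference -0.12, and neither was called (adjusted p = 0.0726 and 0.218). With the authors' processed values the low dose difference was -0.27 (adjusted p = 0.0975).

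Glo1 differed both by dose and by strain. C57BL/6J pools stood at 12.42, 12.67, 12.48 and 12.62 in controls, 12.10, 11.98, 12.19 and 11.84 after the low dose, and 11.77, 11.97, 12.03 and 12.04 after the high dose. All irradiated C57BL/6J pools lay below their controls. Glo1 fell by 0.60 ± 0.12 (1.51-fold) after the high dose (adjusted p = 0.00278) and fell by 0.52 ± 0.12 (1.43-fold) after the low dose (adjusted p = 0.0176). The high dose call held without any 1 pool. The low dose call was lost without control pool 2 or 4, or low dose pool 2 or 4, with adjusted p from 0.0584 to 0.0751, and with median scaling (adjusted p = 0.0576).

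DBA/2J pools had Glo1 levels of 13.84, 13.63, 13.56 and 13.44 in controls, 14.07, 13.41 and 13.91 after the low dose, and 13.55, 13.48, 13.45 and 13.41 after the high dose. The lowest DBA/2J pool lay above the highest C57BL/6J pool, and the DBA/2J groups overlapped. The DBA/2J low dose difference of 0.18 (adjusted p = 0.374) was 0.37 without low dose pool 2 (adjusted p = 0.0198) and -0.21 with that pool alone. Glo1 was 2.10-fold higher in DBA/2J than in C57BL/6J controls (1.07 ± 0.12, adjusted p = 7.58e-07), 2.87-fold higher after the high dose (adjusted p = 2.66e-09) and 3.41-fold higher after the low dose (adjusted p = 7.59e-10). Glo1 lies in a segment known to be duplicated in some inbred strains, DBA/2J among them, and gene copies were not measured here. Sequence differences under a probe can also change its signal between strains, which was not tested.

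Gpx1, the main cytosolic glutathione peroxidase, stood at 15.52, 15.67, 15.65 and 15.58 in C57BL/6J controls, 15.46, 14.98, 15.70 and 14.79 after the low dose, and 14.80, 15.18, 14.92 and 15.18 after the high dose. High dose pools lay below the controls and low dose pools spread across both ranges. It fell by 0.58 ± 0.15 (1.50-fold) after the high dose (adjusted p = 0.0167). The call was lost without control pool 2 or high dose pool 1 (adjusted p = 0.0522 and 0.0693), and without both pools that held pancreatic transcripts (adjusted p = 0.0819), and with median scaling (adjusted p = 0.0814). The low dose difference of -0.38 (adjusted p = 0.198) was called without low dose pool 3 (-0.53, adjusted p = 0.0348). In DBA/2J, controls lay within 15.62 to 15.65 and high dose pools at 14.91, 15.28, 15.45 and 15.30, a difference of -0.40 ± 0.15 that did not pass the test (adjusted p = 0.199).

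Gsr and Srxn1 were the genes that rose in DBA/2J after the low dose, and neither was called in C57BL/6J. Srxn1 stood at 8.62, 8.10, 8.08 and 7.96 in DBA/2J controls, 9.29, 8.88 and 8.91 after the low dose, and 8.15, 8.27, 8.48 and 8.41 after the high dose. All 3 low dose pools lay above every other pool of the strain. Srxn1 rose by 0.84 ± 0.13 (1.78-fold, adjusted p = 0.000941), and with pool 2 as the only low dose pool the difference was 0.69. Fitted on these groups only, the rise was not called (adjusted p = 0.137). In C57BL/6J its levels ranged from 7.96 to 8.06 in controls and 7.66 to 7.87 after the low dose, without overlap, and the difference of -0.26 ± 0.12 was not called (adjusted p = 0.292).

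Gsr levels were 9.75, 9.22, 9.38 and 9.59 in DBA/2J controls and 10.53, 9.66 and 10.70 after the low dose. Low dose pools 1 and 3 lay above the controls and pool 2 lay within their range. Gsr rose by 0.81 ± 0.23 (1.75-fold, adjusted p = 0.0295), but with pool 2 alone the difference was 0.18. The call was lost without control pool 2, 3 or 4 or low dose pool 1 or 3, with adjusted p from 0.0603 to 0.190, with median scaling (0.142) and when only these groups were fitted (0.215). C57BL/6J controls stood at 10.37, 10.13, 9.58 and 10.60, overlapping the DBA/2J controls, and Gsr was 1.61-fold lower in DBA/2J controls (adjusted p = 0.0358). That strain call was lost when 6 of the 8 control pools were left out singly, with adjusted p from 0.0548 to 0.146, without the pair of pools with pancreatic transcripts (0.115), and under 4 other settings (0.0548 to 0.0697).

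**Figure D2:**
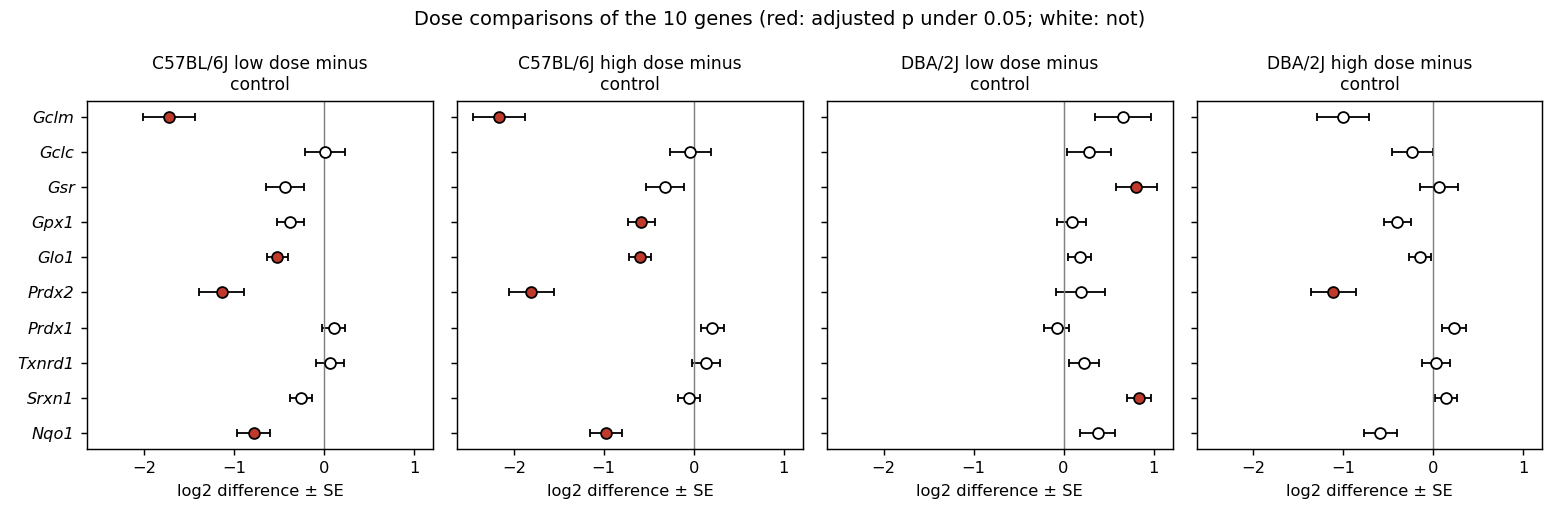
Log2 difference from the strain's own controls (x axis, bars are SE) for the 10 genes after each dose; red points have an adjusted p under 0.05. Gclm and Prdx2 have the largest negative values in C57BL/6J, -2.17 and -1.81 after the high dose, and in DBA/2J after the low dose Srxn1 and Gsr lie at 0.84 and 0.81.

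Whether the strains differed in their dose response was tested directly. For the high dose none of the 10 genes was called, with 2 at an unadjusted p under 0.05, and 0.373% of all features were called. The Gclm change was 1.16 ± 0.41 less negative in DBA/2J (interval 0.31 to 2.01, adjusted p = 0.575), and that of Prdx2 0.70 ± 0.36 (interval -0.05 to 1.44). For the low dose 6 genes were called, all with a higher response in DBA/2J, against 9.62% of all features called that way and 21.8% either way. They were Gclm (2.38 ± 0.43), Prdx2 (1.33 ± 0.37), Gsr (1.24 ± 0.31), Nqo1 (1.16 ± 0.27), Srxn1 (1.10 ± 0.18) and Glo1 (0.70 ± 0.18). With pool 2 as the only DBA/2J low dose pool these differences, for the genes as just listed, were 1.57, 0.74, 0.61, 0.58, 0.95 and 0.31. The Prdx2 call was lost without DBA/2J low dose pool 1 or 3 (adjusted p = 0.0553 and 0.0588).

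Compared directly, the C57BL/6J high and low dose pools gave no call among the 10 genes in limma, with 1 at an unadjusted p under 0.05, and 0.186% of all features were called. In DBA/2J 6 of the genes (Gclm, Prdx2, Nqo1, Gsr, Srxn1 and Gpx1) were lower after the high than after the low dose, where 16.2% of all features were called lower and 36.1% either way. With pool 2 as the only low dose pool the differences of these 6 ranged from -0.85 for Gclm to -0.11 for Gsr. The Gsr and Gpx1 calls were lost without low dose pool 1 or 3 (adjusted p from 0.0696 to 0.114), and that of Gpx1 without high dose pool 1 (0.0806). That of Gsr was also lost with median scaling (-0.42, adjusted p = 0.218) and when only these groups were fitted (0.0579). Glo1 narrowly missed a call there (-0.32, adjusted p = 0.0548). It was called with cyclic loess (-0.51, adjusted p = 0.0115), with the authors' processed values (-0.40, adjusted p = 0.0328) and without low dose pool 2 (-0.52, adjusted p = 0.00115). Between strains, 2 genes were called in controls (Glo1 higher and Gsr lower in DBA/2J, with 5.27% of all features higher, 6.66% lower and 11.9% either way). After the high dose 3 were called, all higher in DBA/2J (Glo1, Prdx2 and Srxn1, with 6.24% of all features higher and 13.2% either way). After the low dose 6 were higher in DBA/2J, namely Gclm, Glo1, Prdx2, Srxn1, Nqo1 and Gpx1 (21.3% of all features, and 44.8% either way). With DBA/2J low dose pool 2 alone these differences were between 0.42 for Gpx1 and 1.38 for Glo1. The Gpx1 call was lost without C57BL/6J low dose pool 2 or 4 or DBA/2J low dose pool 1 (adjusted p from 0.0540 to 0.0666), and when only these groups were fitted (0.110). Gsr narrowly missed a call between the low dose strains (0.56, adjusted p = 0.0501). It was called with cyclic loess, with the stricter detection filter, and without C57BL/6J low dose pool 4 or DBA/2J low dose pool 2 (adjusted p from 0.00184 to 0.0442). Prdx2 was 1.78-fold higher in DBA/2J after the high dose (adjusted p = 0.0296), a call lost without high dose pool 1 or 3 of C57BL/6J or pool 2, 3 or 4 of DBA/2J (adjusted p from 0.0588 to 0.118), without the pair of pools with pancreatic transcripts (0.0845) or with median scaling (0.0555). The Srxn1 difference of 0.37 there (adjusted p = 0.0498) was lost in 6 of 8 fits that left out 1 pool, without the pair of pools with pancreatic transcripts (0.0978), and under 4 other settings (0.0510 to 0.197).

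Markers of red cell precursors moved with some of these genes, Gclm, Prdx2 and Nqo1 among them, and not with all 10. Of 30 listed erythroid markers 23 were measured, and all 23 fell in C57BL/6J after the high dose, with a median difference of -3.68 (4.43% of all features called lower). After the low dose 21 fell in C57BL/6J (median -2.11, with 2.64% of all features lower). After the high dose 9 fell in DBA/2J (median -1.66, with 1.05% of all features lower). The 285 features called either way in that comparison became 34 to 261 with 1 pool left out. After the low dose in DBA/2J none was called and the median was 0.47, where 10.2% of all features were called either way. Without DBA/2J control pool 1 or high dose pool 1 or 2 the count of 9 became 2, without control pool 3 it became 3 and without control pool 2 it became 5, and without low dose pool 2 the count of 0 became 10. Their mean level per pool ran from 11.11 to 12.02 in C57BL/6J controls, 8.84 to 10.64 after the low dose and 7.97 to 8.35 after the high dose. In DBA/2J it ran from 11.86 to 12.63 in controls, 11.45 to 13.19 after the low dose and 9.99 to 11.06 after the high dose.

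For some of the genes the correspondence extended to single pools. In C57BL/6J low dose, pool 3 had the highest erythroid mean, 10.64 against at most 9.46, and also the highest Gclm, Prdx2, Nqo1, Gpx1 and Glo1 levels of its group. Gclc, near background, was highest in that pool too, but Gsr was lowest in it (9.52). Srxn1, Txnrd1 and Prdx1 were not highest in it. In DBA/2J low dose, pools 1 and 3 had erythroid means of 13.03 and 13.19 against 11.45 in pool 2, and higher Gclm, Prdx2, Nqo1, Gpx1 and Glo1 levels than pool 2. Gsr, Srxn1, Gclc and Txnrd1 were also higher in pools 1 and 3 than in pool 2, and Prdx1 was lower. Glo1 lay higher in all DBA/2J pools. In C57BL/6J it was lower in both irradiated groups, as the erythroid mean was. In DBA/2J, low dose pools 1 and 3 had the highest erythroid means and also the highest Glo1 levels (14.07 and 13.91). The group erythroid mean was 12.11 in controls and 10.61 after the high dose, with Glo1 at 13.62 and 13.47. Not every pool kept this order. Low dose pool 2 had Glo1 at 13.41, no higher than any high dose pool (13.41 to 13.55). The erythroid means of those high dose pools were at most 11.06, against 11.45 in low dose pool 2. Prdx1 did not rise with the erythroid mean. The part of red cell precursors in the dose differences was not tested.

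**Figure D3:**
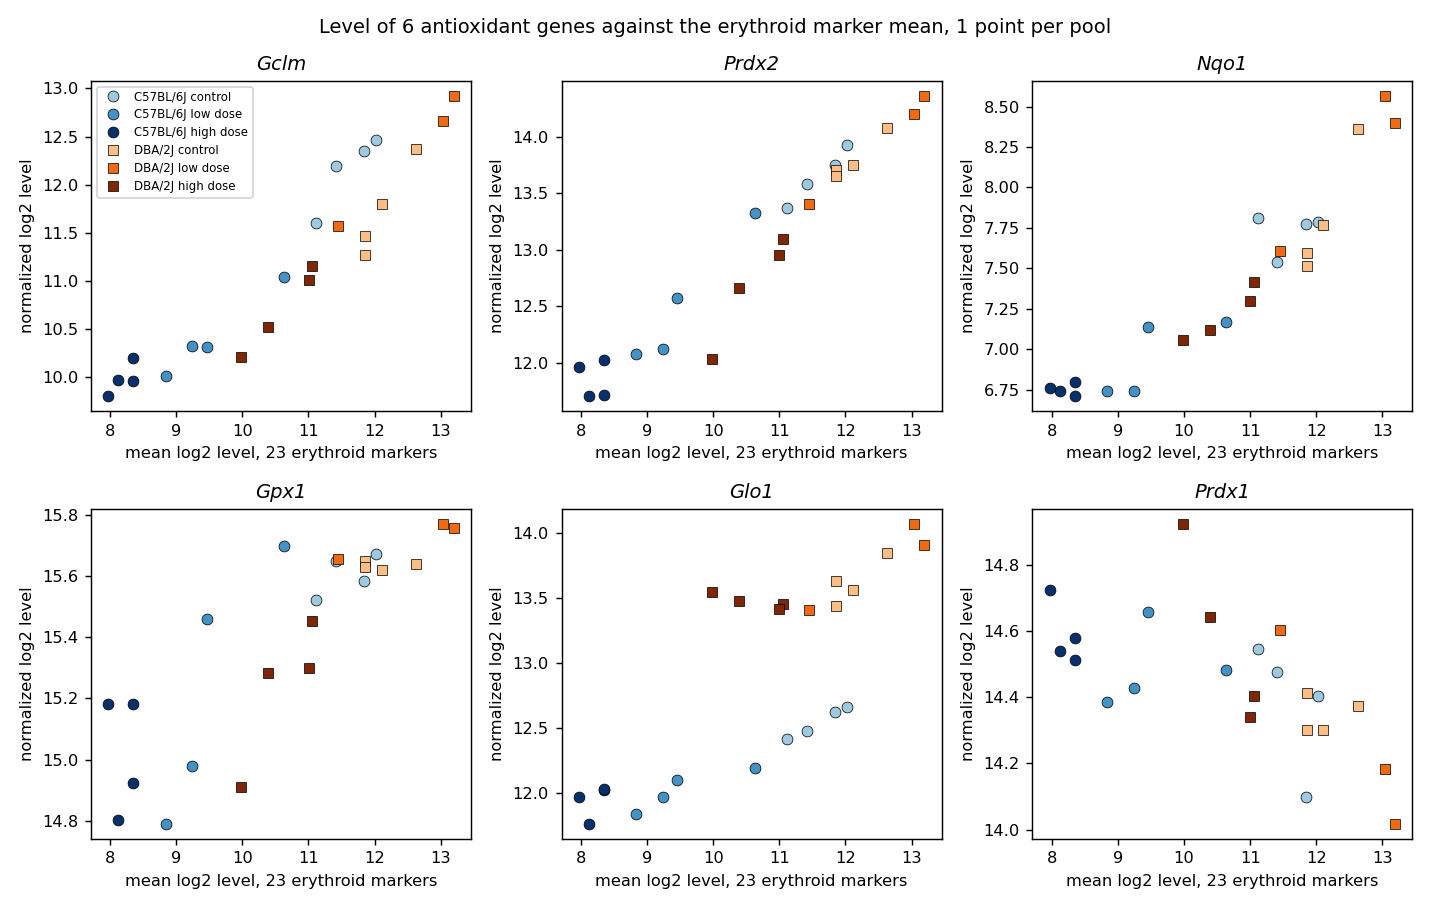
Normalized log2 level of 6 genes (y axis) against the mean log2 level of 23 erythroid markers (x axis) in each pool; circles are C57BL/6J, squares DBA/2J, and shade gives the dose group. Gclm, Prdx2 and Nqo1 increase with the marker mean across both strains, Glo1 lies on separate levels for the strains, and Prdx1 tends the other way.

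Other cell types moved as well. Of 14 measured granulocyte markers, 12 fell after the high dose and 13 after the low dose in C57BL/6J, while in DBA/2J all 14 rose after the low dose (median 3.30) and none was called after the high dose. In C57BL/6J 4.43% and 2.64% of all features were called lower after the high and low dose. In DBA/2J 3.77% were called higher after the low dose. Of 14 measured markers of DNA replication and mitosis, 12 fell after the high and 8 after the low dose in C57BL/6J, and 4 fell after the high dose in DBA/2J. In that last comparison 1.05% of all features were called lower. The 285 features called there either way became 34 to 261 with 1 pool left out. In DBA/2J low dose 6 of 7 B cell and 5 of 8 T cell markers fell, where 6.47% of all features were called lower. The 1759 features called either way in that comparison became 264 to 5346 with single pools left out. Low dose pool 2 had B and T cell marker means of 10.70 and 10.20, within the DBA/2J control ranges of 10.46 to 11.30 and 9.78 to 10.29. The falls rest on the other low dose pools, whose means lay below those ranges. Srxn1 was highest in DBA/2J low dose, where the granulocyte mean was 12.74 to 13.49 against 9.30 to 11.49 in DBA/2J controls. The megakaryocyte and platelet marker mean was also higher there, at 11.09 to 11.98 against 9.88 to 11.06 in those controls. The relation of Srxn1 to any of these cells was not tested.

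Across the 23 pools, which share strain, dose and cell makeup as sources of variation, Gclm and Prdx2 correlated at Pearson r = 0.96, Gclm and Nqo1 at 0.94, Prdx2 and Nqo1 at 0.93, and Gpx1 and Prdx2 at 0.93. Prdx1 ran against Gclm (r = -0.70) and Prdx2 (r = -0.67). Among all named genes, those most like Prdx2 were Dhrs11 (0.99), Tspan33 (0.98) and Slc25a37 (0.98), and those most like Gclm were Emilin2 (0.98), Dhrs11 (0.97) and Tspo2 (0.97). The closest to Nqo1 were Oip5 (0.98), Ptdss2 (0.98) and Add2 (0.98), and the closest to Glo1 was Slc26a1 (0.97). Srxn1 was most like Rnase2a (r = 0.95) and Olfm4 (0.95), with Spearman rank correlations of 0.80 and 0.92. Gpx1 was most like Prdx2. For Gsr and Txnrd1 the best values were 0.85 (Ndufaf2) and 0.79 (Dynll1). These r values describe the pools and carry no test.

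Around these genes, other parts of the pathway were read from lists. Of 86 listed genes of glutathione, thioredoxin, peroxiredoxin, superoxide, NADPH and NRF2 function, 66 were measured. In C57BL/6J 8 fell and 1 rose after the high dose, or 12.1% and 1.52% of the 66, against 4.43% and 3.64% of all features (median over the 66 of 0.05). After the low dose 6 fell and none rose, or 9.09% against 2.64% of all features called lower (median -0.03). In DBA/2J 3 fell and 2 rose after the high dose, or 4.55% and 3.03%, against 1.05% and 0.611% of all features. These 5 calls became 0 without control pool 1 or high dose pool 1 or 2. The low dose in DBA/2J gave 3 falls and 6 rises, or 4.55% and 9.09%, against 6.47% and 3.77% of all features. These 9 calls became 1 without low dose pool 1, 17 without control pool 1 and 27 without low dose pool 2.

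The largest fall among them in C57BL/6J was that of Mgst3, a membrane-bound glutathione transferase. Its control pools stood at 12.07, 12.97, 12.22 and 12.90, low dose pools at 10.08, 9.88, 11.55 and 9.54, and high dose pools at 9.18, 9.27, 9.21 and 9.34. The 3 groups did not overlap. Mgst3 fell by 3.29 ± 0.38 (9.79-fold) after the high dose (adjusted p = 9.68e-06). It fell by 2.28 ± 0.38 after the low dose (adjusted p = 0.00187), and in DBA/2J it fell by 1.66 ± 0.38 after the high dose (adjusted p = 0.0307).

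Hagh, or glyoxalase 2, which completes the reaction begun by Glo1, fell by 1.80 ± 0.26 in C57BL/6J after the high dose (adjusted p = 9.45e-05). It fell by 1.30 ± 0.26 after the low dose there (adjusted p = 0.00597), and fell by 1.21 ± 0.26 in DBA/2J after the high dose (adjusted p = 0.0202). Glrx5, a mitochondrial glutaredoxin needed for iron-sulfur clusters and heme synthesis in red cells, fell in the same comparisons, with differences of -1.70, -1.31 and -1.18 (adjusted p = 0.000161, 0.00514 and 0.0228). In C57BL/6J the glutathione transferase Gstm5, the mitochondrial thioredoxin reductase Txnrd2 and the biliverdin reductase Blvrb fell after both doses, with high dose differences of -1.82, -1.33 and -1.08. The Blvrb low dose call was lost without control pool 2 or low dose pool 4 (adjusted p up to 0.0761). Prdx3, the mitochondrial peroxiredoxin (-0.71), and Mafg, a partner of NRF2 on DNA (-0.53), fell after the high dose. The DBA/2J high dose calls of Mgst3, Hagh and Glrx5 were each lost without some single pools, with adjusted p up to 0.142, 0.108 and 0.115.

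The genes that rose were others. Slc7a11, the transporter that brings in cystine for glutathione synthesis, rose by 0.48 ± 0.10 in C57BL/6J after the high dose (adjusted p = 0.00386). In DBA/2J the high dose raised Mgst1, a microsomal transferase (0.81 ± 0.19, adjusted p = 0.0318), and Idh1, a cytosolic source of NADPH (0.53 ± 0.11, adjusted p = 0.0188). Idh1 stood at 11.96, 11.87, 11.98 and 11.89 in those pools against 11.32 to 11.55 in controls, without overlap, though its call was lost without control pool 1 or high dose pool 1, 2 or 3 (adjusted p up to 0.0801). Leaving out any 1 of the 8 pools took the Mgst1 call away, with adjusted p up to 0.123.

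After the low dose in DBA/2J, the glutathione-degrading enzyme Chac1 (1.07 ± 0.28) and the transferase Mgst2 (1.05 ± 0.19) rose, while Sesn3, a sestrin (-0.94 ± 0.20), and Txnip, the thioredoxin inhibitor (-0.71 ± 0.16), fell. Mgst1, which rose after the high dose, rose after the low dose too (0.74 ± 0.20, adjusted p = 0.0269), without overlap with controls. That low dose call was lost in 4 of 7 fits that left out 1 pool (adjusted p up to 0.152). Sesn3 stood at 9.64, 10.94 and 10.00 in the low dose pools and from 10.68 to 11.41 in controls, so pools 1 and 3 were the low ones and pool 2 lay within the control range. With pool 2 alone, Mgst2 was at 0.94, Chac1 at 0.52, Sesn3 at -0.19 and Txnip at -0.13. Left out singly, control pool 2 or 4 or low dose pool 1 or 3 ended the Chac1 call (adjusted p up to 0.203), low dose pool 1 or 3 that of Txnip (up to 0.110) and low dose pool 1 that of Sesn3 (0.0836).

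**Figure D4:**
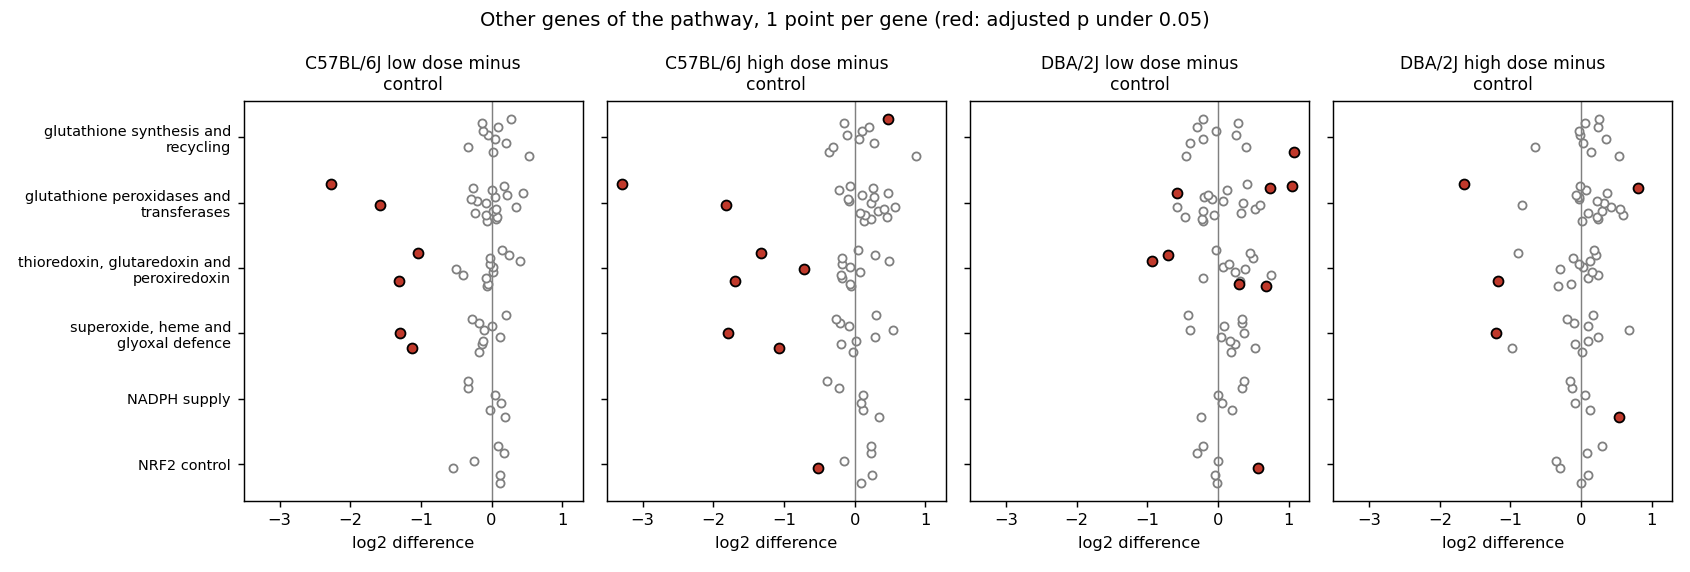
Log2 difference from the strain's own controls for the 66 other measured pathway genes, 1 point per gene in rows by function; red points have an adjusted p under 0.05. Most genes lie near 0 in all 4 comparisons, and the called genes far to the left in C57BL/6J are led by Mgst3 at -3.29 after the high dose.

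Between unirradiated strains, 6 of the 66 were lower and 3 higher in DBA/2J, or 9.09% and 4.55%, near the 6.66% and 5.27% of all features. The cytosolic glutaredoxin Glrx stood at 12.67, 12.31, 12.13 and 12.21 in C57BL/6J controls and 9.71, 9.06, 8.96 and 8.96 in DBA/2J controls, a difference of -3.16 ± 0.18 (8.94-fold lower, adjusted p = 8.75e-12). The strains did not overlap at any dose, and after the high dose the difference was -3.44. The secreted peroxidase Gpx3 was 3.50-fold lower in DBA/2J controls (adjusted p = 3.63e-06), the transferase Gsta3 3.20-fold (adjusted p = 5.67e-06) and Mgst2 1.96-fold (adjusted p = 0.000361). Slc7a11, not detected on DBA/2J control arrays, had a measured difference of -0.67 (interval -0.88 to -0.46, adjusted p = 4.22e-05).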

How the data were processed

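Signals of 23 one-colour Illumina arrays were analysed. The authors deposited 1 linear intensity per probe and array, not normalized, with a detection p-value beside it, per the file headers. The authors' processed log2 values, for which the submitters' processing notes name lumi, were an alternative. How their background was treated: not given in the sources used here. From the intensities, limma 3.58.1 in R 4.3.3 applied normexp (offset 50), quantile normalization and log2. The background that limma infers from detection p-values lay at 158 to 227, above the signal at the detection limit (104 to 140), and was used only as an alternative, against 53.9 to 76.7 by normexp.

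Of 34492 probes, 18423 with a detection p under 0.05 on at least 3 arrays were kept, and the probe with the highest mean was taken for each symbol, which left 17176 features. Gene symbols come from the platform annotation: 20256 probes have 1, 9 several and 14227 none, and 20213 matched RefSeq by gene number. One fit with 6 group means over all arrays (lmFit, eBayes) gave 11 comparisons, adjusted by Benjamini-Hochberg over all features. The fit was tested on simulated data. The 95% intervals come from the same fit. Other pathway genes were named from the 5 called genes with the largest differences in a comparison. Mafg, Prdx3 and the C57BL/6J change of Slc7a11 were added after their values were seen. In C57BL/6J, Blvrb after the high dose and Txnrd2 after the low dose were also given though outside those 5. Likeness was read from the 3 named genes with the highest Pearson r. Genes and lists were chosen with earlier results of these data known. No pools of a group shared more than 1 identical signal. The number of arrays limits the precision.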

Additional observations from a re-analysis of the deposited data

Results flagged for a closer look

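Over 50 combinations of a gene and a group of 4 pools, 1 held a pool far from the others, where chance gives about 1 in 20. In C57BL/6J controls, Nqo1 in pool 3 was at 7.54 and the nearest pool at 7.77, a gap of 0.871 of the group's range. The C57BL/6J high and low dose differences of Nqo1 kept their direction without that pool.

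The response to the low dose differed between the strains for 6 genes by the test of that difference in limma, always higher in DBA/2J. On the log2 scale it differed by 2.38 for Gclm (adjusted p = 0.00102), 1.33 for Prdx2 (adjusted p = 0.0155), 1.24 for Gsr (adjusted p = 0.00822), 1.16 for Nqo1 (adjusted p = 0.00488), 1.10 for Srxn1 (adjusted p = 0.000589) and 0.70 for Glo1 (adjusted p = 0.00888). Of all features, 21.8% differed in this comparison. With pool 2 as the only DBA/2J low dose pool, and the spread taken from the other groups, the 6 differences were between 0.31 for Glo1 and 1.57 for Gclm.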

How the results depend on the processing

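The 110 differences (10 genes in 11 comparisons), of which 35 were called, were recomputed with 15 to 25 alternatives each, of background, normalization, values, filter, samples and pools left out, which gave 1968 values. None reversed a called direction, 1854 stayed on their side of the threshold, 93 lost a call and 21 gained one. The larger moves in the counts of the 10 genes called were these. The background inferred from detection p gave 0 in place of 1 in DBA/2J high dose against control and 1 in place of 2 between control strains. Median scaling gave 0 in place of 1 in DBA/2J high dose and 1 in place of 2 in DBA/2J low dose against control. The authors' processed values and no filter each gave 1 in place of 2 between control strains. Fitting only the groups compared gave 0 in DBA/2J low dose against control, 1 between control strains and 5 in place of 3 between high dose strains. Leaving out pools singly gave 1 to 5 in C57BL/6J low dose, 0 to 1 in DBA/2J high dose and 1 to 6 in DBA/2J low dose against control, 1 to 2 between control strains and 1 to 3 between high dose strains. The count of 6 in DBA/2J low dose came without pool 2. Under the settings that leave out no pool, the other counts moved by at most 1, among them 4 in place of 5 in C57BL/6J high dose and 3 in place of 4 in C57BL/6J low dose against control with the inferred background, median scaling or the stricter filter.

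Chosen after seeing the data, leaving out the pair of C57BL/6J pools with pancreatic transcripts gave 1 between control strains and 1 between high dose strains. Keeping only DBA/2J low dose pool 2 gave 0 against control, 0 in place of 6 against high dose, 2 in place of 6 between low dose strains and 1 in place of 6 in the strain difference of the low dose response. In that setting the spread comes from the other groups and the larger error of 1 pool can by itself end calls. The cause of the other moves was not tested. Median scaling moved the median of all features to 0.17 between DBA/2J high and low dose, -0.14 between low dose strains and -0.12 in the strain difference of the low dose response, from 0.01, 0.01 and -0.02. It changed features called higher and lower from 626 and 761 to 322 and 697 (C57BL/6J high dose against control), from 105 and 180 to 70 and 66 (DBA/2J high dose), from 647 and 1112 to 185 and 1599 (DBA/2J low dose), from 3419 and 2783 to 5431 and 1127 (DBA/2J high against low dose), from 906 and 1144 to 519 and 1170 (control strains), from 3657 and 4043 to 1836 and 5432 (low dose strains) and from 1652 and 2093 to 945 and 2151 (the strain difference of the low dose response). Gclc and Nqo1 did not pass the stricter detection filter. The slide as a block and other probes of a gene were not run, as the headers give no slide and each gene has 1 probe. No paired analysis was possible because the pool numbers in the labels are not shared between groups. Gclc, Txnrd1 and Nqo1 lie near background, and Gpx1 near the top of the range, which limits what their values can show.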
